A study of Mus musculus with 21 samples.

Results

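The 10 genes described here encode transcription factors of the hair follicle bulge: Lhx2, Sox9, Tcf7l1, Tcf7l2, Nfatc1, Nfib, Tbx1, Foxc1, Foxp1 and Barx2. They were chosen by name, as the rows of 3 deposited expression tables whose gene symbol equals one of these names. The rule found 9 of the 10 genes, each at 1 locus per table, among 43945 loci in the table of 3 populations, 43943 in the table of sorted culture fractions and 43945 in the table of inhibitor treatments. Foxp1 had no row of its own, because the tables join it with Eif4e3 and Gm20696 in 1 locus, and the values of that joint locus are given separately.

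The bulge is the niche of hair follicle stem cells, which stay quiescent for much of the hair cycle and rebuild the follicle at the start of each growth phase. Transcription factors that are low or restricted elsewhere in the skin are known to hold these cells in place and out of the cycle: Lhx2 and Sox9 as regulators of stem cell identity, Tcf7l1 and Tcf7l2 as DNA-binding partners of beta-catenin that repress Wnt targets when beta-catenin is absent, and Nfatc1, Foxc1, Tbx1 and Nfib as factors tied to quiescence, self-renewal or the signals sent to neighbouring melanocyte stem cells. The surface proteins CD34 and α6 integrin are the pair by which bulge stem cells of the mouse are commonly sorted.

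RNA of 21 mouse libraries in 7 groups of 3 was sequenced. The first table covers hair follicle stem cells (HFSCs) purified by flow sorting, total epidermal cells and cultured HFSCs, all labelled wild type. The other tables cover cultures of total epidermal cells, called 3C cultures, kept for 10 to 14 days: one compares cells sorted as CD34+ α6+ with cells sorted as CD34neg α6+, and the other compares cultures given dorsomorphin, known as an inhibitor of BMP type I receptors, with cultures given cyclopamine, known as an inhibitor of Smoothened in the Hedgehog pathway, each for 48 h. No genotype is labelled for these 12 libraries, and no culture without inhibitor stands in the inhibitor table, so that comparison sets one inhibitor against the other. Whether the 3 libraries of a group are separate mice or dishes is not labelled, so the authors' p-values measure only the spread between these libraries, which may be technical. The first table names its columns CD34a6, HFSC and bulk. Bulk was read as total epidermal cells, while the labels do not tie CD34a6 and HFSC to the sorted or the cultured HFSCs, so the column names are kept here. The fraction table names its first population 3C_HFSC, and this was read as the CD34+ α6+ cells because the labels of its libraries describe the comparison as CD34+ against CD34neg.

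Each table gives 1 value per gene and population in FPKM (fragment counts scaled to transcript length and to the number of mapped fragments), so genes can be set beside each other per length, and populations are compared within a table only. Values per library were not analysed here, so no standard deviation is given, and a gene is said to be called higher or lower where the adjusted p of the authors' own test, in the authors' deposited table, was under 0.05. Read depth is unknown. The summed FPKM of a population ran from 406723 in CD34a6 to 917078 in bulk. Putting the populations of a table on 1 total moved the median log2 difference of all tested loci from 0.00 to 1.00 for CD34a6 against bulk, and from -0.11 to 0.66 for HFSC against bulk. It moved from -0.07 to -0.31 for HFSC against CD34a6, from -0.07 to 0.31 for CD34+ against CD34neg cells and from -0.02 to 0.09 for dorsomorphin against cyclopamine. For CD34a6 against bulk the called loci split into 3173 above and 3516 below bulk as deposited, and into 3955 and 2734 after the rescaling. Every called difference of the 9 genes kept its direction under the rescaling, though that of Nfatc1 between HFSC and bulk became small.

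The summed level of 14 bulge markers found in the tables was 13984 FPKM in CD34a6, 1521 in HFSC and 5247 in bulk. Without Krt15, a keratin of the bulge and of basal cells, it was 4062, 1483 and 456 FPKM, so the order of HFSC and bulk rested on that gene. Of the 14 markers 13 were called higher in CD34a6 than in bulk, and for HFSC against bulk 5 were called higher and 7 lower. Of all tested loci, 22.0% were called higher and 24.3% lower in the first pair, and 19.0% and 24.7% in the second. Cd34 stood at 327 FPKM in CD34a6, 8.70 in HFSC and 10.6 in bulk, and at 38.7 in the CD34+ and 2.26 in the CD34neg fraction. Krt15 itself stood at 9923 FPKM in CD34a6, 37.9 in HFSC and 4791 in bulk. Markers of other cells differed between the populations as well. Those of interfollicular and suprabasal cells summed to 3453 FPKM in CD34a6, 2072 in HFSC and 93842 in bulk, where all 10 reached 1 FPKM. Those of immune cells summed to 9.22, 4.66 and 614 FPKM in the same order, with 12 of 13 at 1 FPKM or more in bulk and 4 of 13 in CD34a6. The 11 fibroblast markers summed to 38.8, 1.23 and 61.4 FPKM, of which Vim gave 56.6 FPKM in bulk. Without Vim they summed to 33.3, 0.637 and 4.797 FPKM. Col1a1, at 22.4 FPKM in CD34a6 and 1.21 in bulk, and Col1a2, at 8.08 and 0.825 FPKM, were called higher in CD34a6, while Col3a1 and Lum were listed at 0 in both CD34a6 and HFSC. The 9 endothelial and mural markers summed to 1.93, 63.1 and 1.498 FPKM, of which Acta2, a smooth muscle actin, gave 62.1 FPKM in HFSC. The 7 melanocyte markers summed to 22.5, 3.11 and 7.89 FPKM. Mitf gave 13.9 and Dct 7.29 FPKM of that sum in CD34a6, and both were called higher there than in bulk. Tyrp1, at 0.348 FPKM in CD34a6 and 1.18 in bulk, was called lower, and Pmel, at 0.643 and 2.57 FPKM, was not called. The part of cell mixture in the differences from bulk was not tested, and fewer cells of a type cannot be told apart from less RNA per cell in these bulk libraries.

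On the mouse build GRCm38 the 9 loci lay on 9 different chromosomes. Lhx2, a LIM homeodomain factor, was counted at chromosome 2, 38339281 to 38369733, plus strand, and Tcf7l2 at chromosome 19, 55741810 to 55933654, plus strand. The Sox9 locus spanned chromosome 11, 112782224 to 112787760, plus strand, and held no other gene of the GENCODE vM21 annotation, as was the case for Tbx1 and Foxc1. The other 6 loci each also held 1 to 6 annotated genes, none of them protein coding and some of them antisense. The library kit keeps the strand, but the sources used here do not say whether the counting did, so their reads cannot be told apart from those of the member. The Tbx1 locus, chromosome 16, 18581713 to 18586969, minus strand, ended 3702 bases short of the annotated 5′ end of the gene at 18590671, and the Foxc1 locus, chromosome 13, 31806691 to 31810643, plus strand, ended 1833 bases short of the annotated 3′ end.

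The 250 bases before the transcription start are shown for Lhx2, Tbx1 and Tcf7l2, because Lhx2 and Tbx1 had the highest folds of the 9 genes over bulk, Tcf7l2 had one of the lowest, and these windows lie outside every annotated gene. They come from RefSeq on GRCm38.p6 and are written 5′ to 3′ on the strand of the gene, at chr2:38339031-38339280 (plus strand), chr16:18590672-18590921 (minus strand) and chr19:55741560-55741809 (plus strand). Capitals mark matches on either strand to 7 motifs of the families to which the members belong: CTTTGA or CTTTGT (TCF/LEF), AACAAT (SOX), TAATTA (LIM homeodomain), TTGGCA (NFI), TGGAAA (NFAT), TAAACA (forkhead) and AGGTGT (T-box). The forkhead and SOX letters can overlap, and no match did in these windows.
Lhx2: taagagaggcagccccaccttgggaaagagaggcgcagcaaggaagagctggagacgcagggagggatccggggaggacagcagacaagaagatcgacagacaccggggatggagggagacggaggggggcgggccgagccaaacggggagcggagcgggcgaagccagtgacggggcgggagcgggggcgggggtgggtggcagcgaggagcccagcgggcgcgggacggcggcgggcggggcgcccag
Tbx1: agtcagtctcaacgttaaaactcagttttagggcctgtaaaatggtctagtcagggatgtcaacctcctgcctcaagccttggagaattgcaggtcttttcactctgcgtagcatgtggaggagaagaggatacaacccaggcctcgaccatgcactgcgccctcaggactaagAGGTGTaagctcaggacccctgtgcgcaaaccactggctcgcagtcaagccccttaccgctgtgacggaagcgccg
Tcf7l2: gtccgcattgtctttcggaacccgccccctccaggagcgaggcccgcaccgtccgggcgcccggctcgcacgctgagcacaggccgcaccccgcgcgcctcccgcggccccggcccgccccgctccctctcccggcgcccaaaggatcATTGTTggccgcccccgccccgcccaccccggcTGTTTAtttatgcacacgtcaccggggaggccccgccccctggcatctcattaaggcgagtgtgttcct
The Lhx2 window held no match. The Tbx1 window held 1 match to the T-box letters, on the strand of the gene and starting 76 bases before the start. The Tcf7l2 window held 1 match to the SOX letters and 1 to the forkhead letters, both on the opposite strand, starting 102 and 69 bases before the start. Among 32817 RefSeq promoter windows of the same length, 11.8% held the T-box letters, 9.42% the SOX letters, 12.0% the forkhead letters and 27.6% the TCF/LEF letters. The windows of Lhx2 and Tcf7l2 each had a GC content of 72.8% and that of Tbx1 54.4%, against a median of 52.4% over all windows. In the window of Tcf7l1, which lies mostly inside the annotated gene and is not printed, CTTTGT occurred 28 bases before the RefSeq start, and the window of Foxc1 held no match.

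In the table of 3 populations, all 9 transcription factors were called higher in CD34a6 than in bulk, where 22.0% of the 14441 tested loci were called higher and 24.3% lower. The median log2 difference, taken with 1 FPKM added to each value, was 3.07 for the 9 genes and 0.00 for all tested loci. All 9 were also higher in CD34a6 than in HFSC, whereas against bulk the HFSC column split into genes that were higher, lower and not called. The 3 comparisons share their populations, so their counts are not independent of each other.

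**Figure D1:**
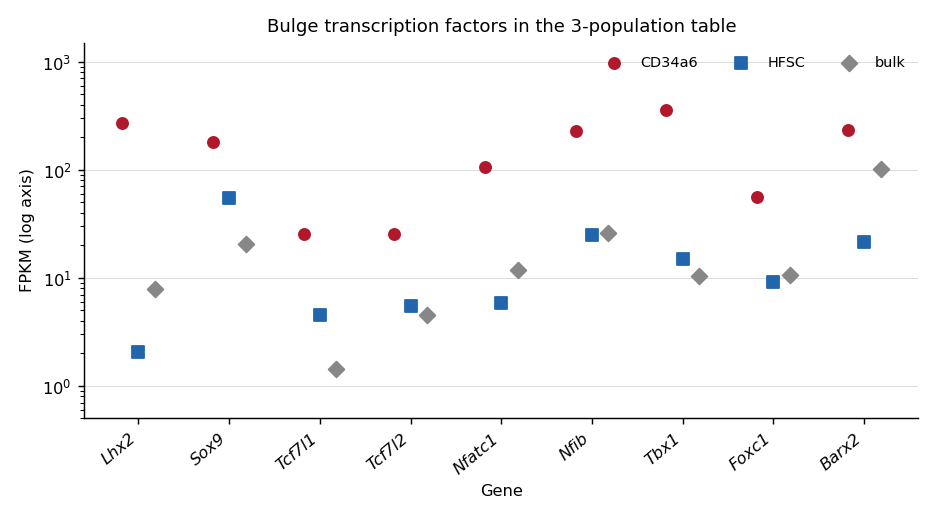
FPKM of the 9 transcription factors on a log axis, with 1 point per population of the 3-population table (CD34a6 circles, HFSC squares, bulk diamonds). The CD34a6 value was the highest of the 3 for every gene, from 25.4 FPKM for Tcf7l1 to 361 FPKM for Tbx1.

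Tbx1 and Lhx2 had the highest levels in CD34a6 and the highest folds over bulk. Tbx1, a T-box factor linked to stem cell self-renewal in the follicle, stood at 361 FPKM in CD34a6, 14.8 in HFSC and 10.3 in bulk. It was thus 35.0-fold higher in CD34a6 than in bulk and 24.4-fold higher than in HFSC, while the difference between HFSC and bulk was not called in the authors' deposited table (adjusted p = 0.126). Lhx2 stood at 270.3 FPKM in CD34a6, 2.06 in HFSC and 7.91 in bulk. This was 34.2 times the bulk level and 131 times the HFSC level, and HFSC was 3.83-fold below bulk, a difference called in the authors' deposited table (adjusted p = 0.000212, the smallest adjusted p there). Lhx2 therefore had a called difference between every pair of populations, in the order CD34a6, bulk, HFSC, whereas the HFSC and bulk levels of Tbx1 were neighbours that did not differ beyond the test.

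Sox9 and Tcf7l1 followed another order, with HFSC above bulk. Sox9, an SRY-box factor needed to specify and keep the bulge stem cells, stood at 180.1 FPKM in CD34a6, 55.2 in HFSC and 20.4 in bulk. The CD34a6 level was 8.81-fold that of bulk and 3.26-fold that of HFSC, and HFSC was 2.70-fold above bulk. Tcf7l1, often called TCF3 in the skin field, stood at 25.4 FPKM in CD34a6, 4.53 in HFSC and 1.43 in bulk. HFSC exceeded bulk 3.17-fold for Tcf7l1, and these were the only 2 of the 9 genes called higher in HFSC than in bulk, where 19.0% of 14035 tested loci were called higher and 24.7% lower.

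Nfatc1 and Barx2 were called lower in HFSC than in bulk, as was Lhx2. Nfatc1, the calcineurin-dependent factor of the bulge, stood at 105.9 FPKM in CD34a6, 5.78 in HFSC and 11.7 in bulk, so that HFSC was 2.02-fold below bulk (adjusted p = 0.00684 in the authors' deposited table). Its log2 ratio of HFSC to bulk was -1.02 as deposited. Putting both populations on 1 total raises that ratio by 0.93, so little of the drop of Nfatc1 remains after the rescaling. Barx2, a homeobox factor of the BarH-like family, stood at 235 FPKM in CD34a6, 21.6 in HFSC and 102 in bulk. Its CD34a6 level was 2.31-fold that of bulk, the lowest of the 9 folds, and its HFSC level was 4.72-fold below bulk, the largest such drop. In bulk Barx2 alone gave 52.2% of the summed FPKM of the 9 genes, followed by Nfib with 13.4%.

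For the remaining 3 genes the HFSC and bulk levels did not differ beyond the authors' test. Nfib, a nuclear factor I protein, stood at 228 FPKM in CD34a6, 25.0 in HFSC and 26.2 in bulk. Foxc1, a forkhead factor tied to stem cell quiescence, stood at 56.4, 9.06 and 10.7 FPKM in the same order, and Tcf7l2, often called TCF4, at 25.7, 5.49 and 4.51 FPKM. Between HFSC and bulk the authors' deposited table lists an adjusted p of 0.748 for Nfib, 0.348 for Foxc1 and 0.391 for Tcf7l2. With Tbx1 these made 4 of 9 genes not called between HFSC and bulk, and the median log2 difference of the 9 genes was -0.06 beside -0.11 for all tested loci. That small median turned to 0.84 with the FPKM of both populations on 1 total and to 0.044 when centred on all tested loci, so it carries no direction.

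Between HFSC and CD34a6 all 9 genes were called lower in HFSC, where 29.0% of 13962 tested loci were called lower and 25.2% higher. The median log2 difference was -3.13 for the 9 genes and -0.07 for all tested loci. Between the extremes of Sox9 and Lhx2 the fold of CD34a6 over HFSC was 18.3 for Nfatc1, 10.9 for Barx2, 9.09 for Nfib, 6.23 for Foxc1, 5.60 for Tcf7l1 and 4.68 for Tcf7l2. Sox9 held 38.4% of the summed FPKM of the 9 genes in HFSC, with Nfib next at 17.4%, whereas in CD34a6 the leading genes were Tbx1 with 24.3% and Lhx2 with 18.2%. The 9 genes together summed to 1487 FPKM in CD34a6, 144 in HFSC and 195 in bulk.

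**Figure D2:**
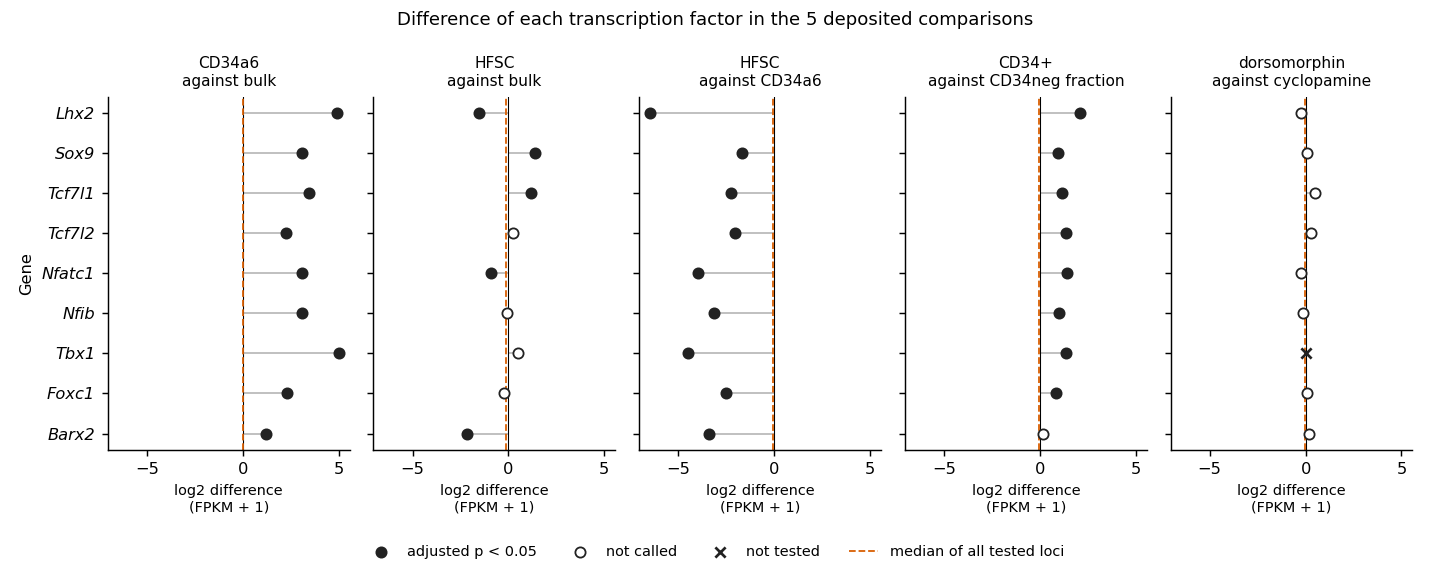
Log2 difference of FPKM + 1 for each gene in the 5 deposited comparisons, with the first-named population positive where it was higher. Filled points had an adjusted p under 0.05, open points were not called, the cross was not tested, and the dashed line is the median of all tested loci; the 9 genes were all right of it for CD34a6 against bulk and all left of it for HFSC against CD34a6.

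In the 3C culture, 8 of the 9 genes were called higher in the CD34+ than in the CD34neg fraction, and Barx2 was not called. Among the 11370 tested loci 2.08% were called higher in the CD34+ fraction and 4.71% lower. The median log2 difference was 1.17 for the 9 genes and -0.07 for all tested loci. The libraries of these fractions differ from those of the first table, and the tables were normalised separately.

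Lhx2 had the highest fold of the 9 genes, with 6.36 FPKM in the CD34+ and 0.695 FPKM in the CD34neg fraction, a 9.15-fold difference (adjusted p = 0.00275 in the authors' deposited table). Tbx1 stood at 3.70 FPKM in CD34+ and 0.857 FPKM in CD34neg cells, 4.32-fold apart. Tcf7l1 stood at 3.81 and 1.14 FPKM, 3.35-fold apart. These 3 genes were low in both fractions, with Lhx2 and Tbx1 under 1 FPKM in CD34neg cells. Nfatc1 stood at 14.4 FPKM in the CD34+ and 4.83 FPKM in the CD34neg fraction, 2.98-fold apart, with the same adjusted p as Lhx2.

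The other 5 genes had lower folds than these 4. Tcf7l2 stood at 48.7 FPKM in CD34+ and 18.3 FPKM in CD34neg cells, a 2.66-fold difference. Nfib stood at 94.9 and 46.6 FPKM, 2.04-fold apart, and was the highest of the 9 genes in both fractions. Sox9 stood at 67.6 and 34.7 FPKM, 1.95-fold apart. Together Nfib and Sox9 made up most of the summed level, with 37.6% and 26.8% of the 9-gene sum in CD34+ cells. Foxc1 stood at 10.3 FPKM in CD34+ and 5.21 FPKM in CD34neg cells, 1.97-fold apart. Barx2 stood at 2.94 and 2.47 FPKM, and the difference was not called in the authors' deposited table (adjusted p = 0.685). The 6 called genes other than Lhx2 and Nfatc1 had adjusted p between 0.0171 and 0.0302 in the authors' deposited table, so at an adjusted p under 0.01 only 2 of the 9 genes were called.

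**Figure D3:**
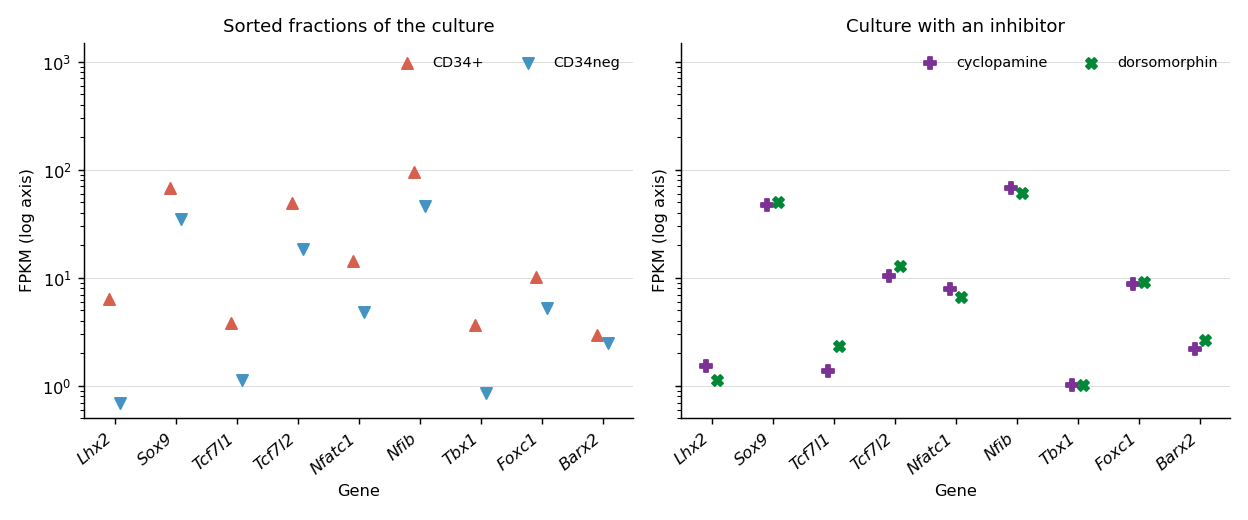
FPKM of the 9 genes on a log axis in the sorted CD34+ and CD34neg fractions (left) and in cultures with cyclopamine or dorsomorphin (right). In the fractions the CD34+ point lay above the CD34neg point for every gene, least so for Barx2 (2.94 against 2.47 FPKM), while in the inhibitor table the points of a gene lay close together.

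The bulge markers differed between the fractions in the same direction as the 8 genes, with 6 of 11 tested markers called higher in CD34+ cells and 0 lower. Cd34, on which the cells were sorted, and Krt15 at 62.4 against 10.7 FPKM were among them. Of the interfollicular and suprabasal markers 2 of 5 tested were called lower in the CD34+ fraction, and the list summed to 74.0 FPKM there against 237 FPKM in CD34neg cells. Fibroblast markers summed to 1.66 and 1.28 FPKM, immune markers to 8.41 and 9.36 FPKM and melanocyte markers to 2.91 and 2.36 FPKM. H2-Ab1 gave 6.03 and 8.14 FPKM of the immune sums, and Cd74 gave 1.71 and 0.748 FPKM. Mitf gave 2.26 and 1.87 FPKM of the melanocyte sums. None of these 3 genes was called, and Ptprc, Cd3e, Dct, Tyr and Lum were listed at 0 in both fractions. The endothelial and mural list summed to 32.5 and 13.7 FPKM, and its only member at 1 FPKM or more was Acta2, with 31.8 FPKM in CD34+ and 12.9 FPKM in CD34neg cells.

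Between cultures with dorsomorphin and cultures with cyclopamine, 0 of the 8 tested genes were called, where 1.26% of 11505 tested loci were called higher with dorsomorphin and 1.31% lower. One of the 8, Tcf7l1, had an unadjusted p under 0.05. It stood at 2.36 FPKM with dorsomorphin and 1.36 FPKM with cyclopamine, a ratio of 1.73, with p = 0.0435 and adjusted p = 0.374 in the authors' deposited table. The median log2 difference was 0.08 for the 8 genes and -0.02 for all tested loci.

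The levels of the other genes with the 2 inhibitors lay within 1.35-fold of each other. Nfib stood at 61.2 FPKM with dorsomorphin and 67.9 FPKM with cyclopamine. Sox9 stood at 50.6 and 47.2 FPKM, and Tcf7l2 at 12.99 and 10.34 FPKM, in the same order. These 3 were the highest of the 9 genes with either inhibitor. Foxc1 stood at 9.24 FPKM with dorsomorphin and 8.84 FPKM with cyclopamine. Nfatc1 stood at 6.61 and 7.93 FPKM, Barx2 at 2.63 and 2.19 FPKM and Lhx2 at 1.14 and 1.54 FPKM. Tbx1, at 1.01 FPKM with each, was not tested by the authors. The tables give no standard error for these ratios, so a difference that was not called is not shown to be absent.

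Other genes did differ between the inhibitors. Bulge markers were called lower with dorsomorphin in 3 of 10 tested and higher in 0, among them Krt15 at 3.61 against 20.6 FPKM with cyclopamine. Of 32 tested other transcription factors of the follicle, 1 was called higher and 4 lower. Id1, an inhibitor of DNA binding that is a known BMP target, stood at 2.502 FPKM with dorsomorphin and 11.9 FPKM with cyclopamine. Id3 stood at 2.44 and 10.96 FPKM. Of the markers of other cells, the interfollicular and suprabasal list summed to 1190.0 FPKM with dorsomorphin and 1405 FPKM with cyclopamine. In the same order the fibroblast list summed to 31.3 and 18.1 FPKM, of which Vim, not called, gave 21.9 and 14.0 FPKM. The immune list summed to 18.9 and 12.2 FPKM, but to 1.009 and 2.544 FPKM without H2-Ab1. The endothelial and mural list summed to 7.18 and 3.76 FPKM, but to 0.225 and 0.622 FPKM without Acta2. H2-Ab1 and Acta2 were each called higher with dorsomorphin. The melanocyte list summed to 2.18 and 2.90 FPKM.

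The members were next set beside the other genes of their own families. Of 36 family paralogues, 35 had a row, and 12 reached 1 FPKM in some population of the first table and 9 in each of the other tables. Of 12 tested paralogues, 7 were called higher in CD34a6 than in bulk and 1 lower, with a median log2 difference of 1.15. Between HFSC and bulk 2 of 11 were called higher, and between HFSC and CD34a6 5 of 12 were called lower. Over all tested loci 22.0% were called higher and 24.3% lower for CD34a6 against bulk. For HFSC these shares were 19.0% and 24.7% against bulk, and 25.2% and 29.0% against CD34a6. They were 2.08% and 4.71% between the fractions, and 1.26% and 1.31% between the inhibitors. A count near its share, here and for the lists below, does not set a list apart from other loci. Nfix was the only one of 9 tested paralogues called between the fractions, at 168 FPKM in CD34+ and 72.7 FPKM in CD34neg cells. Between the inhibitors 0 of 9 were called, and 0 had an unadjusted p under 0.05 in the authors' deposited table.

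Among the NFI genes, Nfix and not Nfib was the most abundant in all 7 populations. Nfix stood at 267 FPKM in CD34a6, 53.8 in HFSC and 94.4 in bulk. Nfib made up 38.8% of the summed FPKM of the 4 NFI genes in CD34a6, 21.8% in HFSC and 17.1% in bulk. Its share was 23.0% in CD34+ and 23.9% in CD34neg cells, and 25.1% with cyclopamine and 21.8% with dorsomorphin. Nfic was called higher in CD34a6 (70.0 FPKM) than in bulk (21.4 FPKM), and Nfia, at 21.1 and 11.3 FPKM, was not called.

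Among the NFAT genes the order of the members differed between populations. Nfatc1 made up 58.3% of the summed FPKM of 5 NFAT genes in CD34a6 and was the highest of them there, but it held 11.7% in HFSC and 22.1% in bulk. Nfat5, the family member regulated by osmotic stress and not by calcineurin, was the highest in HFSC, at 24.5 FPKM, and in bulk, at 26.9 FPKM. In the fractions Nfatc1 held 17.2% in CD34+ and 9.23% in CD34neg cells, below Nfatc3 and Nfat5 in both. Nfatc3 stood at 37.4 FPKM in CD34+ and 23.5 FPKM in CD34neg cells, a difference that was not called. Nfatc4 was called higher in CD34a6 (6.05 FPKM) than in bulk (0.176 FPKM), and Nfatc2, known from T cells, was called lower (0.451 FPKM in CD34a6 and 4.43 FPKM in bulk). Immune markers summed to 9.22 FPKM in CD34a6 and 614 FPKM in bulk, and their part in this difference was not tested.

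In the TCF/LEF family Tcf7l2 was the highest of the 4 genes in all 7 populations, though barely so in CD34a6. There Tcf7l2 held 39.1% and Tcf7l1 38.6% of the family's summed FPKM, and Tcf7, at 13.2 FPKM, held 20.1%. Tcf7l1 held 34.9% in HFSC and 17.3% in bulk. In the culture tables its share was 5.98% in CD34+ and 5.32% in CD34neg cells, 8.48% with cyclopamine and 12.5% with dorsomorphin, while Tcf7l2 held 76.5% in CD34+ and 85.5% in CD34neg cells. Lef1, which is known from the hair matrix, stood at 1.55 FPKM in CD34a6 and 0.314 FPKM in bulk and was called higher. In the fractions Lef1 stood at 6.89 FPKM in CD34+ and 0.0960 FPKM in CD34neg cells and was not called (adjusted p = 0.249 in the authors' deposited table).

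**Figure D4:**
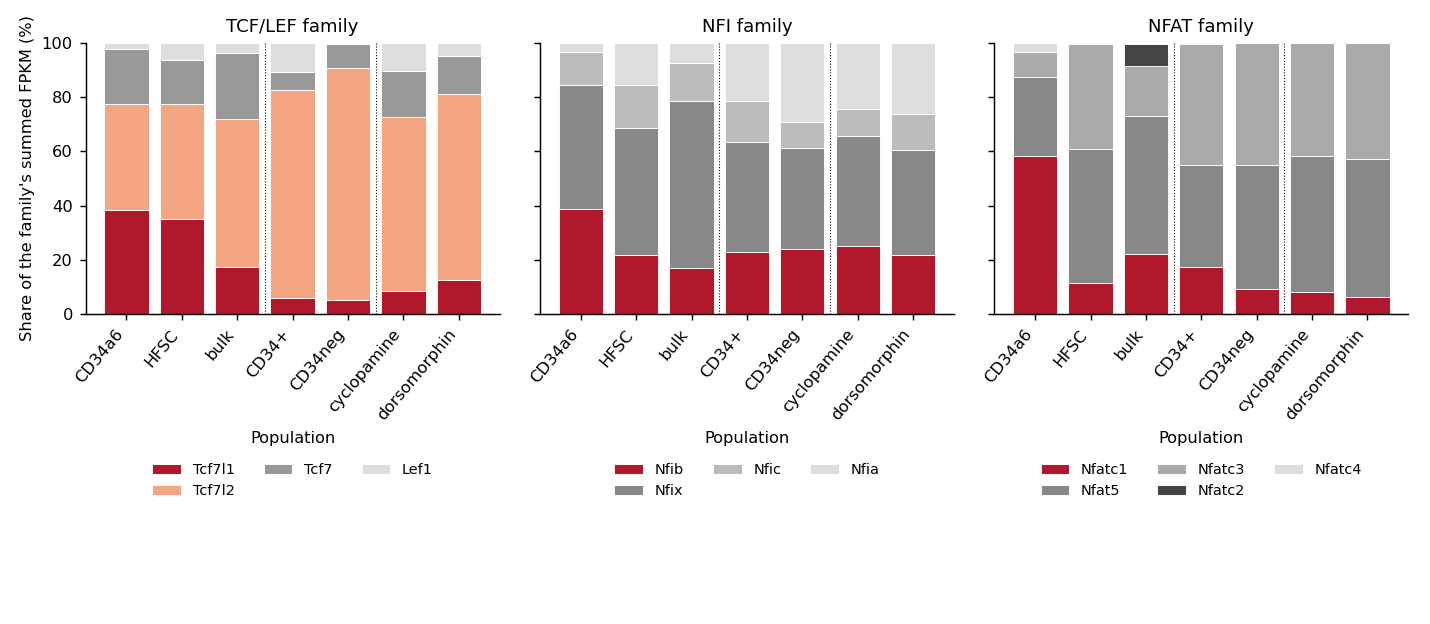
Share of each gene in the summed FPKM of its family (percent, bars stacked to the whole) in the 7 populations, with dotted lines between the 3 tables and members in red and orange. Nfatc1 took 58.3% of the NFAT sum in CD34a6 and at most 22.1% in the other populations, and Tcf7l2 took the largest TCF/LEF share in each population.

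Of the other paralogues at 1 FPKM or more, Lmx1b, a LIM homeodomain gene like Lhx2, was called higher in CD34a6 (4.12 FPKM) and in HFSC (1.61 FPKM) than in bulk (0.144 FPKM). Foxp4, a paralogue of Foxp1, stood at 24.5 FPKM in CD34a6, 20.7 in HFSC and 9.01 in bulk, and both were called higher than bulk. Tbx3, a T-box gene like Tbx1, stood at 4.07, 3.95 and 2.42 FPKM in that order and was not called between any 2 of these populations. None of the 3 was called between the fractions or between the inhibitors, where Lmx1b was not tested.

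The joint locus of Eif4e3, Foxp1 and Gm20696, at chromosome 6, 98925338 to 99666797, stood at 100.5 FPKM in CD34a6, 35.8 in HFSC and 13.6 in bulk. It was called in all 3 pairs of the first table, with CD34a6 7.41-fold above bulk and HFSC 2.64-fold above bulk. It stood at 79.2 FPKM in CD34+ and 72.2 FPKM in CD34neg cells, which the authors' deposited table did not call (adjusted p = 0.721), and at 57.5 FPKM with dorsomorphin and 56.9 FPKM with cyclopamine. Foxp1 is a forkhead factor linked to the quiescence of bulge cells. Eif4e3 encodes a protein of the translation initiation factor family, and the share of Foxp1 in the locus value cannot be told apart from that of Eif4e3.

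The list of LIM cofactors, through which Lhx2 acts, also holds Lmo genes. Of 7 tested genes of this list, 3 were called higher in CD34a6 and 2 lower, relative to bulk. Lmo1 was among the former, and Lmo2, under 1 FPKM in both populations, among the latter. Ldb1, the LIM domain binding protein, stood at 149 FPKM in CD34a6, 48.4 in HFSC and 71.5 in bulk. Ssbp3, a partner of Ldb1, stood at 122 FPKM in CD34a6 and 33.2 in bulk. Lmo1, whose product competes for Ldb1, stood at 59.7 FPKM in CD34a6, 10.9 in HFSC and 25.6 in bulk. Between HFSC and bulk 1 of 7 was called higher and 3 lower, and between HFSC and CD34a6 2 of 6 higher and 4 lower. The shares of all tested loci were 19.0% and 24.7% in the first pair, and 25.2% and 29.0% in the second. Between the fractions 0 of 6 were called and 0 had an unadjusted p under 0.05 in the authors' deposited table, and between the inhibitors 1 of 6, Ssbp2, was called lower with dorsomorphin (10.7 against 19.5 FPKM).

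Of 14 tested partners of the TCF/LEF factors, 7 were called higher in CD34a6 and 2 lower, relative to bulk, and 1 of those 2, Hipk2, turned higher with the FPKM of both populations on 1 total. Tle2, a Groucho-type corepressor that binds TCF proteins, stood at 37.0 FPKM in CD34a6, 0.612 in HFSC and 2.15 in bulk. Ctnnbip1, an inhibitor of the beta-catenin and TCF interaction, ran the other way, at 21.6, 18.8 and 71.4 FPKM. Pygo1, a coactivator of beta-catenin, stood at 4.33 FPKM in CD34a6, 0.0520 in HFSC and 0.772 in bulk. Between HFSC and bulk 2 of 14 were called higher and 4 lower, and between HFSC and CD34a6 2 higher and 5 lower. For all tested loci these shares were 19.0% and 24.7%, and 25.2% and 29.0%. None of 12 was called between the fractions, where 3 had an unadjusted p under 0.05, and none of 13 between the inhibitors, where 2 had one, all in the authors' deposited table.

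Of 10 tested genes of calcineurin and NFAT signalling, 4 were called higher in CD34a6 and 1 lower, relative to bulk. Ppp3cb, a catalytic subunit of calcineurin, stood at 39.3 FPKM in CD34a6 and 16.1 in bulk, and Rcan3, of the calcineurin regulator family, at 7.17 and 2.32 FPKM. Rcan1, a calcineurin regulator known as an NFAT target, stood at 52.0 FPKM in CD34a6, 13.4 in HFSC and 73.4 in bulk and was called lower in HFSC than in either. Between HFSC and bulk 3 of 10 were called higher and 2 lower, and between HFSC and CD34a6 2 higher and 4 lower. All tested loci had shares of 19.0% higher and 24.7% lower in the first pair, and 25.2% and 29.0% in the second. These counts were near those shares. Homer2, whose product binds NFAT and competes with calcineurin, was the only one called between the fractions, at 7.88 FPKM in CD34+ and 3.07 FPKM in CD34neg cells. Between the inhibitors 0 of 10 were called and 0 had an unadjusted p under 0.05 in the authors' deposited table.

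Of 10 genes reported elsewhere as targets of the members, 7 were called higher in CD34a6 and 0 lower, relative to bulk, with a median log2 difference of 1.49. These counts take no account of whether a member is reported to activate or to repress the target. Lgr5, the R-spondin receptor, stood at 70.5 FPKM in CD34a6, 0.299 in HFSC and 1.88 in bulk, and Edn2, an endothelin, at 6.85, 0.686 and 1.14 FPKM. Col17a1, a hemidesmosomal collagen, was at 1310.3 FPKM in CD34a6, 1084 in HFSC and 269 in bulk and was called higher than bulk in both. Between HFSC and bulk 2 were called higher and 4 lower, and between HFSC and CD34a6 1 higher and 6 lower. Beside these stand shares over all tested loci of 19.0% and 24.7%, and of 25.2% and 29.0%. Between the fractions 2 of 7 tested were called higher, Cd34 and Krt15. The fractions were sorted on CD34 itself, so the call of Cd34 adds nothing about the targets. Between the inhibitors 1 of 6, Krt15, was called lower with dorsomorphin. Cd34, Krt15, Lgr5, Col17a1 and Fgf18 also stand in the list of bulge markers.

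The members were also set beside 52 other transcription factors of the follicle. Of 44 tested, 25 were called higher in CD34a6 and 10 lower, relative to bulk, beside 22.0% and 24.3% of all tested loci. Gli1, the Hedgehog target and effector, had the largest difference, at 84.2 FPKM in CD34a6, 0.283 in HFSC and 1.42 in bulk. Bnc1, a zinc finger factor of basal keratinocytes, did not follow the members' pattern, at 32.8 FPKM in CD34a6, 35.6 in HFSC and 2.22 in bulk. Runx1 was called higher in HFSC, at 36.2 FPKM, than in CD34a6, at 14.1 FPKM, and in bulk, at 5.17 FPKM. Of 43 tested between HFSC and bulk 17 were called higher and 12 lower, and between HFSC and CD34a6 10 of 41 were called higher and 21 lower. All tested loci had shares of 19.0% higher and 24.7% lower in the former pair, and 25.2% and 29.0% in the latter. With the FPKM of both populations on 1 total, Sox21, called lower in CD34a6 than in bulk, and Id2 and Irx4, called lower in HFSC than in bulk, turned higher. Between the fractions 6 of 31 were called higher in CD34+ cells and 0 lower, beside 2.08% and 4.71% of all tested loci. Among the 6 were Vdr, the vitamin D receptor, at 61.5 against 30.0 FPKM, and Id2 at 17.1 against 7.63 FPKM.

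Ranks among all genes that the tables annotate with DNA-binding transcription factor activity or sequence-specific DNA binding describe where the 9 genes stood. Of 610 such genes at 1 FPKM or more in CD34a6, Tbx1 ranked 2, Lhx2 ranked 4, Barx2 ranked 7, Nfib ranked 8 and Sox9 ranked 12 by FPKM. Tcf7l2 and Tcf7l1 ranked 152 and 155. In HFSC the best placed of the 9 was Sox9, at rank 49 of 548, and Lhx2 ranked 494. In the CD34+ fraction Nfib ranked 23, Sox9 ranked 41 and Tcf7l2 ranked 57 of 563, while Lhx2 ranked 343 and Tbx1 ranked 412. Of 664 tested genes of this kind 40.8% were called higher in CD34a6 than in bulk, with a median log2 difference of 0.55. By that difference Tbx1 ranked 2, Lhx2 ranked 3, Tcf7l1 ranked 6 and Barx2 ranked 143. By the log2 difference between CD34+ and CD34neg cells Lhx2 ranked 2, Nfatc1 ranked 4, Tcf7l2 ranked 5 and Tbx1 ranked 6 of 524 tested genes of this kind, of which 5.34% were called higher. Against HFSC, Lhx2 had the largest fall from CD34a6 of 659 such genes, of which 43.4% were called lower.

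The genes most like each member were found among 8654 symbols by the distance over 4 log2 differences (CD34a6 against bulk, HFSC against bulk, CD34+ against CD34neg and dorsomorphin against cyclopamine), 2 of which share the bulk population. Nearest to Lhx2 were Npnt, which encodes the matrix protein nephronectin, at a distance of 1.07 and Sfrp1, a secreted Wnt antagonist, at 1.18, both among the bulge markers used above. Npnt stood at 455 FPKM in CD34a6, 3.29 in HFSC and 16.2 in bulk. Nearest to Nfatc1 were Fzd7, a Wnt receptor, at 0.64 and Boc, a Hedgehog coreceptor, at 0.76. Nearest to Tbx1 were Trabd2b at 0.76 and Slc6a6, the taurine transporter, at 0.83. These 3 members had the most distant neighbours, while all others had one within 0.45.

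Nearest to Sox9 were P2rx7, an ATP-gated channel, at 0.37 and Fam101b at 0.38, and Fam101b was also nearest to Tcf7l1, at 0.45, followed by Hspg2, which encodes perlecan, at 0.50. Sox9 and Tcf7l1 were the closest pair of members, at 0.63. Tcf7l2 was nearest to Iqgap3 (0.29) and Pbx3 (0.38), Nfib to Creb5 (0.37) and Ltbp3 (0.40), and Barx2 to Ppap2a (0.34) and Pfn2 (0.46). Nearest to Foxc1 were Pygl, liver glycogen phosphorylase, at 0.28 and Tcf7, of the TCF/LEF family, at 0.30. Barx2 lay farthest from the other members, up to 4.79 from Tbx1.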

How the data were processed

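The 21 libraries were made from polyadenylated RNA, and the groups were taken from the titles. The submitters' processing notes list HISAT 0.1.6 and StringTie 1.1.0, then Cuffdiff and Cufflinks 2.2.1, for the sorted HFSCs, total epidermal cells and cultured HFSCs. For the remaining 12 libraries the authors used TopHat2 2.0.13, cutadapt 1.5, DESeq2 1.8.1 and Subread 1.4.2 with featureCounts, per the submitters' processing notes, which give GRCm38 throughout. The labels name a TopHat2 alignment for all of them. All 3 deposited tables have the layout of a Cuffdiff gene table, so which tool made the p-values of the last 2 is not settled. FPKM values were computed by the authors per population, per the file headers, and no value per library was analysed here. The log2 fold changes are the authors' deposited ratios of those FPKM values. The p-values and q-values are the authors' too. The smallest deposited p-value was 5e-05, and the q-values equalled a Benjamini-Hochberg adjustment over a table to within 5.3e-07.

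Here lines repeated in a table were dropped, each value was assigned by the population its line names, and members were matched by symbol. Folds of single genes are ratios of FPKM, and log2 differences of groups of genes use a pseudocount of 1 FPKM, which understates the change of low genes. No test was run here. The adjustment and the subtraction of a length trend were tested on simulated data. Python 3.11.15, pandas 2.3.3, numpy 2.4.6 and scipy 1.17.1 were used, with GENCODE vM21 for gene spans and exonic lengths.

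The members and the 12 other gene lists, with 199 entries, were chosen with earlier results of these data known. Named were all members, family paralogues of 1 FPKM or more, from other lists up to 4 called genes per comparison with the largest log2 difference, and for each member the 2 nearest symbols of at least 5 FPKM in some population that were tested in all 5 comparisons, leaving out predicted genes, pseudogenes, Xist and Y-linked genes. Bulge markers, the keratin and cell type markers and Id genes beyond that rule are named to describe the populations. Alternatives were pseudocounts of 0.1 and 0.01 FPKM, a minimum of 1 FPKM, adjustment within a pair, an adjusted p under 0.01, FPKM rescaled to 1 total, centring, a length trend subtracted, and other choices of locus.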

Additional observations from a re-analysis of the deposited data

How the results depend on the processing

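The number of the 9 genes called stayed the same in all 5 comparisons when the p-values were adjusted within a pair alone and when loci under 1 FPKM in both populations were left out. The fraction and inhibitor tables hold 1 pair each, so adjustment within a pair could alter only the first table. All 9 genes reached 1 FPKM in at least 1 population of each pair, so leaving out low loci could remove none of them. At an adjusted p under 0.01 the number called fell from 8 to 2 between CD34+ and CD34neg cells, Lhx2 and Nfatc1, and was unchanged in the other 4 comparisons. None of the 9 genes that was called changed direction under the rescaling to 1 total, the centring or the length trend. The pseudocounts of 0.1 and 0.01 FPKM could not change a direction, since the same amount is added to both values. The median log2 difference of the 9 genes between HFSC and bulk changed from -0.06 to 0.84 with the rescaling and to 0.044 with the centring. Between CD34a6 and bulk it was 3.07, 4.25 with the rescaling and 2.75 with the length trend subtracted, and between CD34+ and CD34neg cells it was 1.17, with 1.66 and 1.23 in the same order. Summing all loci of a symbol changed no level, since each of the 9 symbols had 1 locus, and 3 of the 9 loci held no other annotated gene. Lengths were found for 93.1% to 93.6% of the tested loci. No paired analysis was possible because the tables hold no values per replicate, and for the same reason leaving out single replicates was not run. Read depth is unknown, which limits what can be said of genes near 1 FPKM, such as Tbx1 and Lhx2 in the culture tables.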
